A study of Mus musculus with 8 samples.

Results

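Adipose precursors (APs) of the perigonadal visceral fat pad (viWAT) were compared after 3 days of high fat diet (HFD) and of standard diet (SD). The comparison rests on 4 of the 8 arrays of the study, chosen by their labels: the arrays HFD viAP 5 and HFD viAP 6 against the arrays SD viAP 3 and SD viAP 4. The other 4 arrays hold APs of subcutaneous fat, HFD scAP 7 and 8 and SD scAP 1 and 2, and enter only through the shared estimate of the spread and as a comparison. All mice were male, of the C57BL/6J strain and 7 to 8 weeks old, had no engineered allele named in the labels, and gave RNA in pools of 3 mice per array. The cells came from digested tissue, were depleted with magnetic beads against CD45 and CD31, held by beads against SCA-1 and lysed without culture. Each Affymetrix Mouse Gene 1.0 ST array gave 1 intensity per probe set, a group of probes for 1 transcript. Of the 35556 probe sets deposited, the 21789 with exactly 1 gene symbol were used, for 19938 genes.

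APs are the fibroblast-like stromal cells of fat tissue that divide and differentiate into new adipocytes. In mice on a fatty diet, those of the visceral depot are known to enter the cell cycle within days, ahead of a rise in adipocyte number. They also build and remodel the extracellular matrix that holds the adipocytes, take up and store lipid as they differentiate, and respond to growth factors, oxidative stress and sterol supply.

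Values are log2 intensities, so that a change of 1 is a doubling. Each change is the mean of the 2 HFD viAP arrays minus the mean of the 2 SD viAP arrays, positive where HFD was higher. A probe set was called higher or lower at an adjusted p under 0.05 (limma, Benjamini-Hochberg over 21789 probe sets). Nothing says that the pools came from separate litters or days, so the p-values measure only the spread between pools. With 2 arrays against 2, an exact two-sided permutation test of a single gene could not go below p = 0.333, and single genes were therefore tested only in the fit across all genes.

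The purification was checked on its own markers. Pdgfra, the receptor that marks APs, measured 11.55 and 11.52 on the HFD viAP arrays and 11.01 and 11.27 on the SD viAP arrays, and Dcn, the fibroblast proteoglycan decorin, 13.71 and 13.66 against 13.79 and 13.79. SCA-1 itself (Ly6a) was not analysed here. Ptprc, which encodes CD45, lay between 4.81 and 5.43 and Pecam1, which encodes CD31, between 5.70 and 6.07 on these 4 arrays. None of the 23 leukocyte and macrophage markers had a mean above a log2 level of 7, and their summed intensity was 782 and 796 in HFD viAPs against 1013 and 942 in SD viAPs. Of the 23, 17 had both HFD viAP arrays below both SD viAP arrays. That pattern was seen in 31.2% of all probe sets, but in 4416 of the 9913 genes with a mean log2 level up to 6. The median change of the 23 was -0.30, and -0.11 after a second quantile normalization, beside -0.17 and -0.02 for those dim genes. Whether fewer such cells were present was not tested. Cd68, a macrophage marker, measured 6.92 and 6.82 on the HFD viAP arrays and 7.84 and 6.94 on the SD viAP arrays. The summed intensity of 28 endothelial markers, 9 of them above that level, was 4326 and 4115 against 3717 and 4598. The 5 erythroid markers summed to 192 and 190 against 237 and 247, and the 20 epididymal markers to 525 and 597 against 747 and 670. In both of these lists 0 members had a mean above that level. The 8 Schwann and nerve markers went the other way and summed to 5354 and 5321 in HFD viAPs against 3434 and 3097 in SD viAPs. Pmp22, a myelin protein gene that fibroblasts also express, was the only one of the 8 above that level and the only one called (12.30 and 12.28 in HFD viAPs against 11.61 and 11.42 in SD viAPs, a change of 0.77), while the Schwann cell genes Sox10 and S100b had changes of -0.11 and -0.30.

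The array labelled SD viAP 4 differed from the other viAP arrays in depot genes. Tcf21, a transcription factor of visceral stroma, measured 10.43 and 10.61 on the HFD viAP arrays and 9.61 on SD viAP 3, but 5.32 on SD viAP 4. Wt1, which marks visceral fat and mesothelium, measured 8.94 and 9.09 in HFD viAPs, 8.71 on SD viAP 3 and 5.98 on SD viAP 4. In the other direction, the subcutaneous transcription factor gene Tbx15 measured 3.91 and 4.09 in HFD viAPs, 4.70 on SD viAP 3 and 9.78 on SD viAP 4, and Hoxc10, a homeobox gene of the lower trunk, 4.91 and 5.52 in HFD viAPs, 5.55 on SD viAP 3 and 7.74 on SD viAP 4. The 19 subcutaneous depot genes summed to 4244 and 3976 in HFD viAPs and 4214 on SD viAP 3, against 9779 on SD viAP 4. That sum of SD viAP 4 lay within the 9120 to 13089 of the 4 scAP arrays. The 13 visceral depot genes summed to 6397 and 6732 in HFD viAPs, 6936 on SD viAP 3 and 5323 on SD viAP 4, which lay above the 3208 to 4424 of the 4 scAP arrays. The count of each gene list, and the changes of the genes described at most length, are therefore also given against SD viAP 3 alone, in a fit without SD viAP 4 that takes the lone array to vary like the other groups. Counts from that fit are over all probe sets, and their total was larger when dim probe sets were left out, as given at the end. A low count there does not show that the change of a list was lost. A viAP change given without a reference is against both SD viAP arrays. Where a gene rose and SD viAP 4 was the lower SD array, the rise against SD viAP 3 alone is smaller. This holds also for genes given below only against both SD arrays, such as Bmp6.

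HFD viAPs had 1841 probe sets called higher (8.45% of those tested) and 424 called lower (1.95%) than SD viAPs. Of these, 479 were at least 2-fold higher (2.2%) and 35 at least 2-fold lower (0.161%), for 431 and 35 genes. Against SD viAP 3 alone, 198 were higher (0.909%) and 21 lower (0.0964%) over all probe sets. For all 514 of the 2-fold calls the HFD viAP arrays did not overlap the SD viAP arrays. Their sign against SD viAP 3 alone was thereby fixed, and SD viAP 3 was part of the reference that made the calls. Against SD viAP 3 alone, 312 of the 479 higher and 24 of the 35 lower ones were still at least 2-fold. The calls needed both HFD viAP arrays: without HFD viAP 5 the fit called 0 probe sets (2243 higher and 919 lower at an unadjusted p under 0.05), and without HFD viAP 6 it called 3 higher and 0 lower (2890 and 1518 unadjusted).

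The HFD viAP arrays had a wider range of intensity than the SD viAP arrays, which bears on every count. Their median log2 levels were 5.98 and 6.02 against 6.07 and 6.07, but 10% of probe sets lay above 8.78 and 8.71 against 8.37 and 8.34. The 6184 genes with a mean log2 level above 7 had a median change of 0.32 (0.29 against SD viAP 3 alone), and the median of all genes was -0.06. Of these bright genes 21.9% were called higher and 0.986% lower, against 8.38% and 1.92% of all genes, so that the share of a list of bright genes is read beside 21.9%. Of the 6184, 159 were called higher against SD viAP 3 alone. A second quantile normalization brought the median of the bright genes to 0.01, and the calls to 644 higher and 338 lower. After it, 76.0% of the 2-fold calls were higher, against 93.2% before. Changes under about 0.3 in bright genes are thus of the size of this shift, and medians of gene groups are given with that of bright genes in mind.

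**Figure D1:**
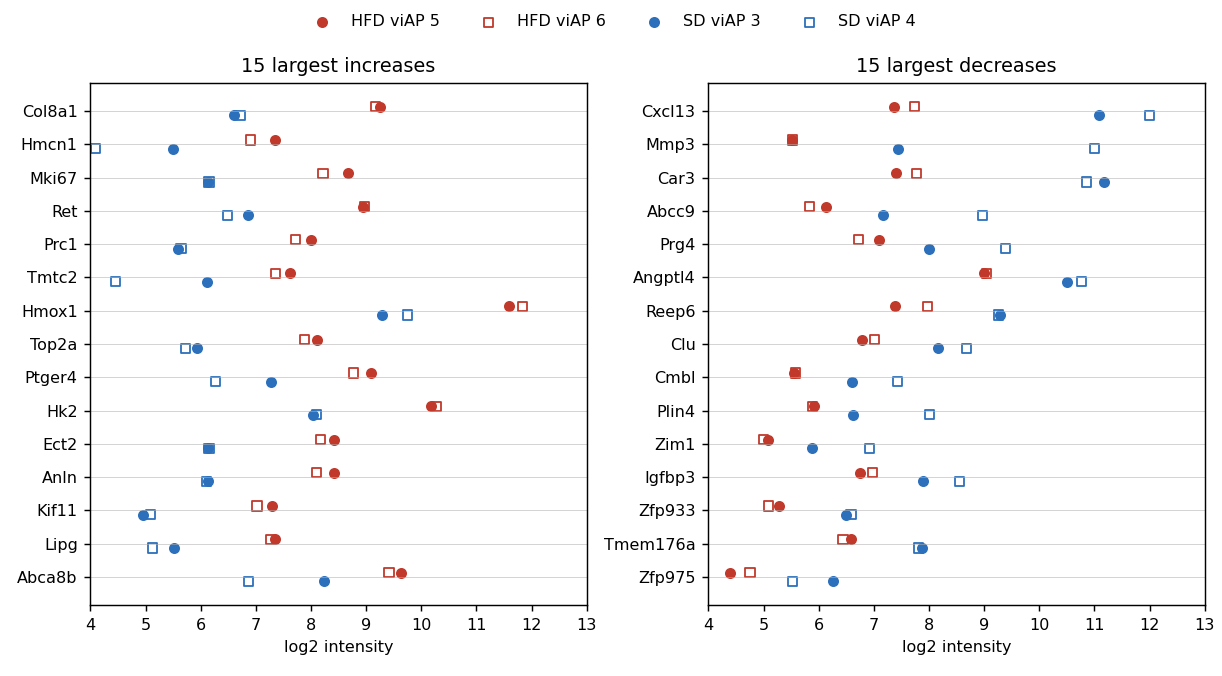
Log2 intensity (x axis) of the 15 genes that rose most and the 15 that fell most (y axis, 1 row per gene) on the 2 HFD viAP arrays (red) and the 2 SD viAP arrays (blue). The colours do not overlap in any row, which was part of how these genes were chosen, and the SD arrays lie furthest apart for Mmp3, at 7.44 and 11.00.

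The largest increase among the called probe sets was that of Col8a1, a short-chain collagen made by migrating and dividing stromal and vascular cells. It measured 9.26 and 9.17 on the HFD viAP arrays and 6.60 and 6.73 on the SD viAP arrays. The change was 2.55 (SE 0.13, adjusted p = 0.000432 from limma) and 2.61 against SD viAP 3 alone (adjusted p = 0.0267 over all probe sets). In scAPs Col8a1 measured 6.09 and 6.27 after HFD and 6.54 and 6.59 on SD, a change of -0.38. The difference between the depots' changes was 2.93 (adjusted p = 0.00242), and Col8a1 was the only probe set for which that difference passed the test. That call was lost without SD viAP 4 (smallest adjusted p over all probe sets 0.0561) and on leaving out any other single array except SD viAP 3, with smallest adjusted p-values of 0.0613 to 0.1. Of all probe sets, 1600 passed it at an unadjusted p under 0.05. No other change described here is thereby shown to be larger or smaller in viAPs than in scAPs.

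Hmox1 encodes heme oxygenase-1, which breaks heme down to biliverdin, carbon monoxide and iron. It measured 11.59 and 11.84 in HFD viAPs and 9.29 and 9.75 in SD viAPs. The change was 2.19 (SE 0.20, adjusted p = 0.00251) and 2.43 against SD viAP 3 alone, beside 1.81 in scAPs. Of the 26 heme and iron genes measured, 4 rose (15.4%, below the share of bright genes, which 17 of the 26 were) and 0 fell. Only Hmox1 was called against SD viAP 3 alone. The other 3 were Flvcr1, a heme exporter (0.74), Steap4, a ferrireductase of adipose cells (0.67), and Aco1, an iron sensor of the cytosol (0.66).

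Ret, the receptor tyrosine kinase for ligands of the GDNF family, measured 8.93 and 8.98 in HFD viAPs against 6.86 and 6.49 in SD viAPs, a change of 2.28 (SE 0.22, adjusted p = 0.00325; 2.10 against SD viAP 3 alone). Ptger4, a receptor for prostaglandin E2, measured 9.09 and 8.77 against 7.27 and 6.27, a change of 2.16 (1.66 against SD viAP 3 alone). Hk2, the hexokinase that commits glucose to glycolysis, measured 10.18 and 10.27 against 8.04 and 8.10, a change of 2.16 (SE 0.14, adjusted p = 0.00157). The SD arrays were close together for Hk2, and its change against SD viAP 3 alone was 2.19. Lipg, endothelial lipase, changed by 1.98 (1.78 against SD viAP 3 alone), and Abca8b, a lipid transporter, by 1.96, or by 1.28 against SD viAP 3 alone. Hmcn1, a giant matrix protein of the fibulin family, was read by 77 probe sets. Of these 27 were called, all higher, and the highest changed by 2.34 (1.64 against SD viAP 3 alone).

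**Figure D2:**
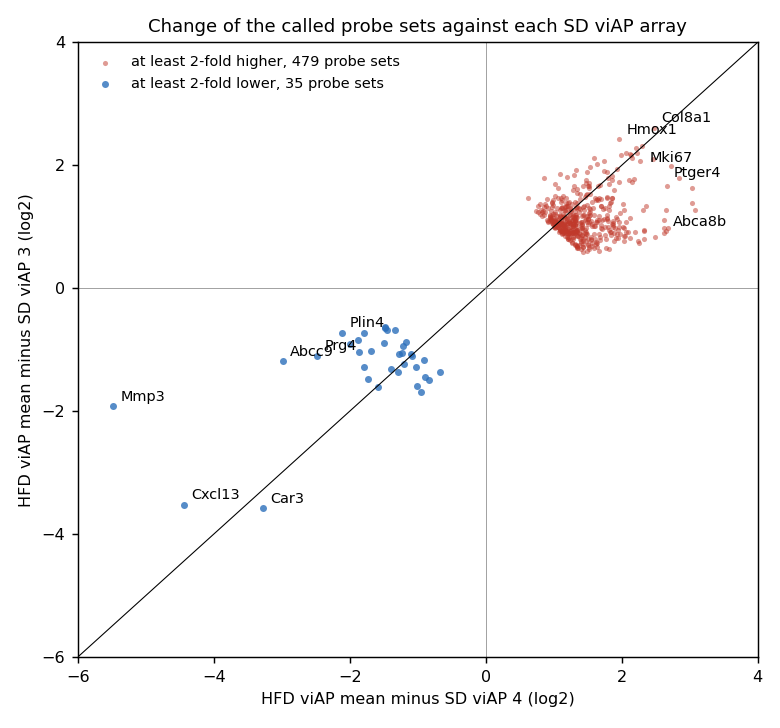
Change of each of the 514 probe sets called at 2-fold, as the HFD viAP mean minus SD viAP 4 (x axis, log2) and minus SD viAP 3 (y axis, log2), with the line of equal change. The HFD and SD arrays did not overlap for any of these probe sets, so all points lie in the quadrants of 1 sign. Mmp3, Abcc9, Plin4 and Abca8b lie far from the line because the 2 SD viAP arrays differed there.

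Of the gene groups examined, genes of mitosis had the largest share called. Of 67 measured genes of the mitotic spindle, chromosome condensation and cytokinesis, 52 rose and 0 fell, and 62 had both HFD viAP arrays above both SD viAP arrays, a pattern seen in 28.9% of all probe sets. Their median change was 0.96 and 0.99 against SD viAP 3 alone, and 1.05 after a second quantile normalization, where 48 were called higher. Only 4 of the 67 had a mean above a log2 level of 7, and 77.6% were called, against 8.38% of all genes. Of the 67, 14 were called higher against SD viAP 3 alone. The median change in scAPs was 0.13. The summed intensity of the list was 8314 and 7211 in HFD viAPs, against 3562 and 3324 in SD viAPs.

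Mki67, whose protein coats the chromosomes of dividing cells, measured 8.68 and 8.22 in HFD viAPs and 6.13 and 6.15 in SD viAPs. The change was 2.31 (SE 0.18, adjusted p = 0.00251) and 2.32 against SD viAP 3 alone. Prc1, which bundles the microtubules of the spindle midzone, measured 8.00 and 7.72 against 5.58 and 5.64, a change of 2.25 (2.28 against SD viAP 3 alone). Top2a, which untangles sister chromatids, measured 8.10 and 7.89 against 5.93 and 5.73 (2.17, and 2.07 against SD viAP 3 alone). A second Top2a probe set stayed between 3.17 and 3.32 on all 4 arrays, at the dim end of the array. Ect2 and Anln, which position and drive the cleavage furrow, changed by 2.15 and 2.14, and Kif11, the motor that separates the spindle poles, by 2.13. Their changes against SD viAP 3 alone were 2.16, 2.13 and 2.20. On SD these genes lay between 4.95 and 6.15 in viAPs, so that on SD their signals were dim.

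Genes used earlier in the cell cycle had smaller median changes. Of 57 genes of DNA replication and nucleotide supply, 7 rose and 0 fell, with a median change of 0.25 (0.16 against SD viAP 3 alone, where 0 were called). The 7 were 12.3% of the list, against 8.38% of all genes. Rrm1, the large subunit of ribonucleotide reductase, measured 8.75 and 8.64 in HFD viAPs and 7.52 and 7.17 in SD viAPs, a change of 1.35. Uhrf1, which carries DNA methylation through replication, rose by 1.19, Mcm6, a subunit of the replicative helicase, by 0.98 and Pcna, the sliding clamp of the polymerases, by 0.63. Of 28 G1 cyclins, their kinases and inhibitors, 4 rose (14.3%) and 0 fell, and 0 were called against SD viAP 3 alone. The 4 were Rbl1 (0.99) and Rb1 (0.69), pocket proteins that hold E2F in check, the cyclin D2 gene Ccnd2 (0.71) and Myc (0.70). The D-type cyclin gene Ccnd1 measured 8.07 and 7.66 in HFD viAPs and 7.13 and 7.23 in SD viAPs (0.68, adjusted p = 0.0808). Cdk2 and Cdk4, the kinases of the G1 cyclins, had changes of 0.60 and 0.55, and Ccne1, Ccnd3 and Ccne2 had 0.48, 0.42 and 0.25. None of these 6 passed the test. Among the 30 replication-dependent histone genes, H2ac4 (1.58) and H2bc4 (0.68) rose and 0 fell, and 0 were called against SD viAP 3 alone.

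**Figure D3:**
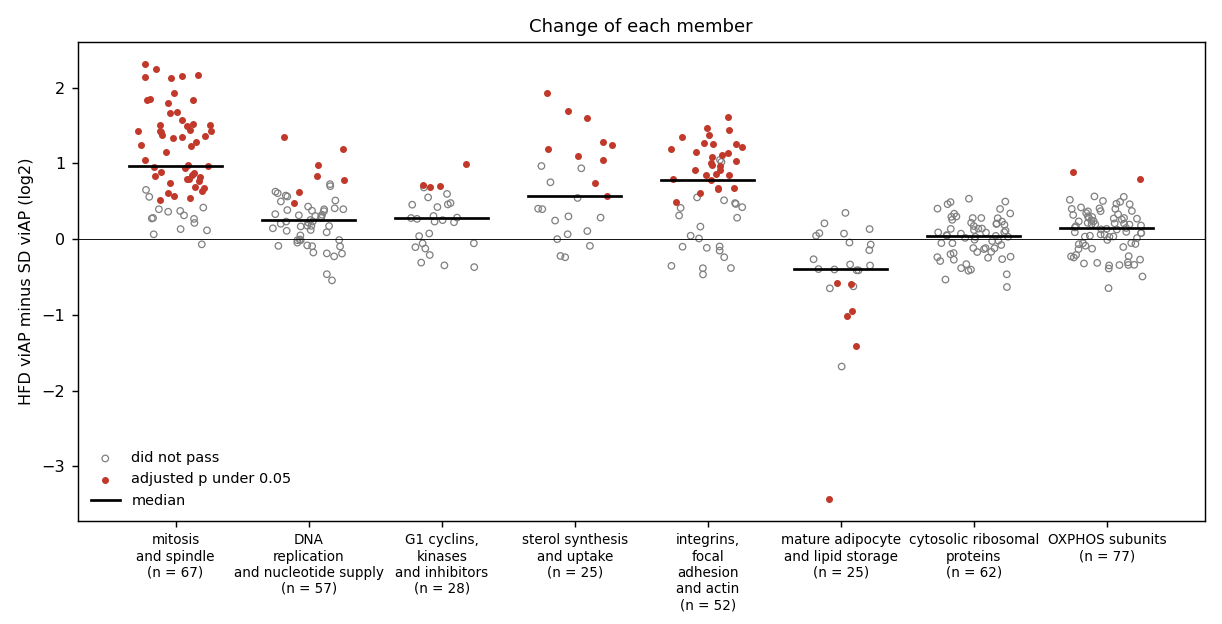
Change of every measured member (y axis, HFD viAP minus SD viAP, log2) of 8 gene groups (x axis). Filled red points passed at an adjusted p under 0.05, open points did not, and bars mark the medians, at 0.96 for mitosis, 0.25 for DNA replication and 0.05 for cytosolic ribosomal proteins.

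The promoters of the mitosis genes are shown for a pair of the genes with large increases, because the motifs that mark promoters of late cell cycle genes can be read in them. These are the CHR element, TTTGAA, bound by the DREAM and MuvB complexes, and the CCAAT box, bound by NF-Y. The windows run from 250 bases before to 50 bases after the annotated start (RefSeq, GRCm38.p6), and capitals mark the letters TTTGAA or CCAAT on either strand. That of Mki67 is chr7:135716330-135716629 on the minus strand and that of Top2a is chr11:99024140-99024439 on the minus strand.
Mki67: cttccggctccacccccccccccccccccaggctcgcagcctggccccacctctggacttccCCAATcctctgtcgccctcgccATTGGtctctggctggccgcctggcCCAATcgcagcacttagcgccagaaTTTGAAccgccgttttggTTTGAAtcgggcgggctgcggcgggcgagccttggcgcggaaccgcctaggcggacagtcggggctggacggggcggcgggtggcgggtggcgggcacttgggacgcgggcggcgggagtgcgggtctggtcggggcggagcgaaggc
Top2a: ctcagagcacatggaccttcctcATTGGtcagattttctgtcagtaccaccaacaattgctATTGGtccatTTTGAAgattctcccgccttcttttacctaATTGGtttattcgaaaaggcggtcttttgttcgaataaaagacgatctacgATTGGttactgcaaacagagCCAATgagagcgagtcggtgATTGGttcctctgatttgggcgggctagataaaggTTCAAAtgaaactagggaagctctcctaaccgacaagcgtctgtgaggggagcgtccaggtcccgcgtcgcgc
The Mki67 window holds TTTGAA at 116 and at 98 bases before the start, and CCAAT at 188, 166 and 141 bases before it. Of the 56 mitosis genes with a window, 38 held TTTGAA (67.9%), against 20.2% of all 27025 genes with a window of that length. The letters stood in 32 of the 43 windows of genes that rose and in 6 of the 13 others. CCAAT stood in 41 of the 56 (73.2%), against 41.1% of all genes. Among 47 windows of the replication genes TTTGAA stood in 6 (12.8%) and CCAAT in 29 (61.7%). These are matches of letters in a window.

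Enzymes of sterol synthesis rose at early and at late steps. Of 25 genes of sterol synthesis and uptake, 10 rose and 0 fell, with a median change of 0.57 (0.51 against SD viAP 3 alone, where 2 were called). The share of 40.0% was above the 21.9% of bright genes, which 16 of the 25 were. After a second quantile normalization 8 were called higher. Cyp51, lanosterol demethylase, measured 8.28 and 8.05 in HFD viAPs and 6.23 and 6.23 in SD viAPs, a change of 1.93 against both SD arrays and against SD viAP 3 alone. Msmo1, which removes the next methyl groups, rose by 1.70. The earlier enzymes Hmgcs1, Idi1 and Sqle rose by 1.29, 1.60 and 1.24, and the late enzyme Hsd17b7 by 1.20. Insig1 and Insig2, which hold the sterol sensor in the endoplasmic reticulum, rose by 1.05 and 1.10, and Srebf2, the transcription factor of the pathway, by 0.75. The median change of the list in scAPs was 0.63.

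Fatty acid synthesis genes rose in part, with 7 of 24 higher and 1 lower and a median change of 0.50, or 0.31 against SD viAP 3 alone, where 1 was called higher. The share of 29.2% lay near that of bright genes. The desaturases Fads2 and Fads1, which make polyunsaturated fatty acids, rose by 1.57 and 1.09, and Scd2, which makes monounsaturated ones, by 1.23. Acaca, acetyl-CoA carboxylase, rose by 1.03, and Fasn, fatty acid synthase, by 0.69. Of 29 genes of fatty acid oxidation and other PPAR targets, 2 rose and 3 fell (0 and 1 against SD viAP 3 alone). Angptl4, a secreted inhibitor of lipoprotein lipase, measured 9.00 and 9.05 in HFD viAPs and 10.50 and 10.76 in SD viAPs. It fell by 1.60 (SE 0.15, adjusted p = 0.00251), and the change was -1.47 against SD viAP 3 alone. Pdk4, the kinase that inhibits pyruvate dehydrogenase, fell by 1.07 (-0.69 against SD viAP 3 alone), while the oxidation enzymes Decr1 and Hadha rose by 0.74 and 0.61.

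Of 35 genes of glycolysis, glucose uptake and hypoxia, 10 rose (28.6%) and 0 fell, and 2 were called higher against SD viAP 3 alone. Beside Hk2 they included the glucose transporter Slc2a1 (1.45, and 0.95 against SD viAP 3 alone), Ndrg1, a stress-responsive gene (1.27), the glycolytic enzyme Pgk1 (1.02, read by 3 probe sets that may share reads of retrocopies), Hif1a, the oxygen-regulated transcription factor (0.94), and Pfkfb3 (0.89). The median change of the list was 0.32, and that of all bright genes also 0.32.

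Of 25 genes of mature adipocytes and lipid storage, 0 rose and 6 fell (24.0%, against 1.92% of all genes), with a median change of -0.40. Against SD viAP 3 alone 0 were called higher and only Car3 was called lower, with a median of -0.25. Their summed intensity was 4904 and 4520 in HFD viAPs, against 6232 and 8170 in SD viAPs, and 8 of the 25 had a mean above a log2 level of 7. Car3, carbonic anhydrase 3, an abundant cytosolic protein of adipocytes, measured 7.40 and 7.77 in HFD viAPs and 11.17 and 10.86 in SD viAPs. It fell by 3.43 (SE 0.34, adjusted p = 0.00351), and the change was -3.58 against SD viAP 3 alone. Plin4, a lipid droplet coat protein, fell by 1.42 (-0.72 against SD viAP 3 alone), and Aqp7, the glycerol channel, changed by -1.01. The others were Retn (-0.95), Agpat2 (-0.59) and Plin1 (-0.58). Adipoq, which encodes adiponectin, measured 4.64 and 4.59 in HFD viAPs, 4.64 on SD viAP 3 and 5.88 on SD viAP 4, so that only SD viAP 4 stood apart. In a bulk sample fewer cells of a type and less RNA per cell cannot be told apart, and the part of residual adipocyte RNA in these values was not tested.

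**Figure D4:**
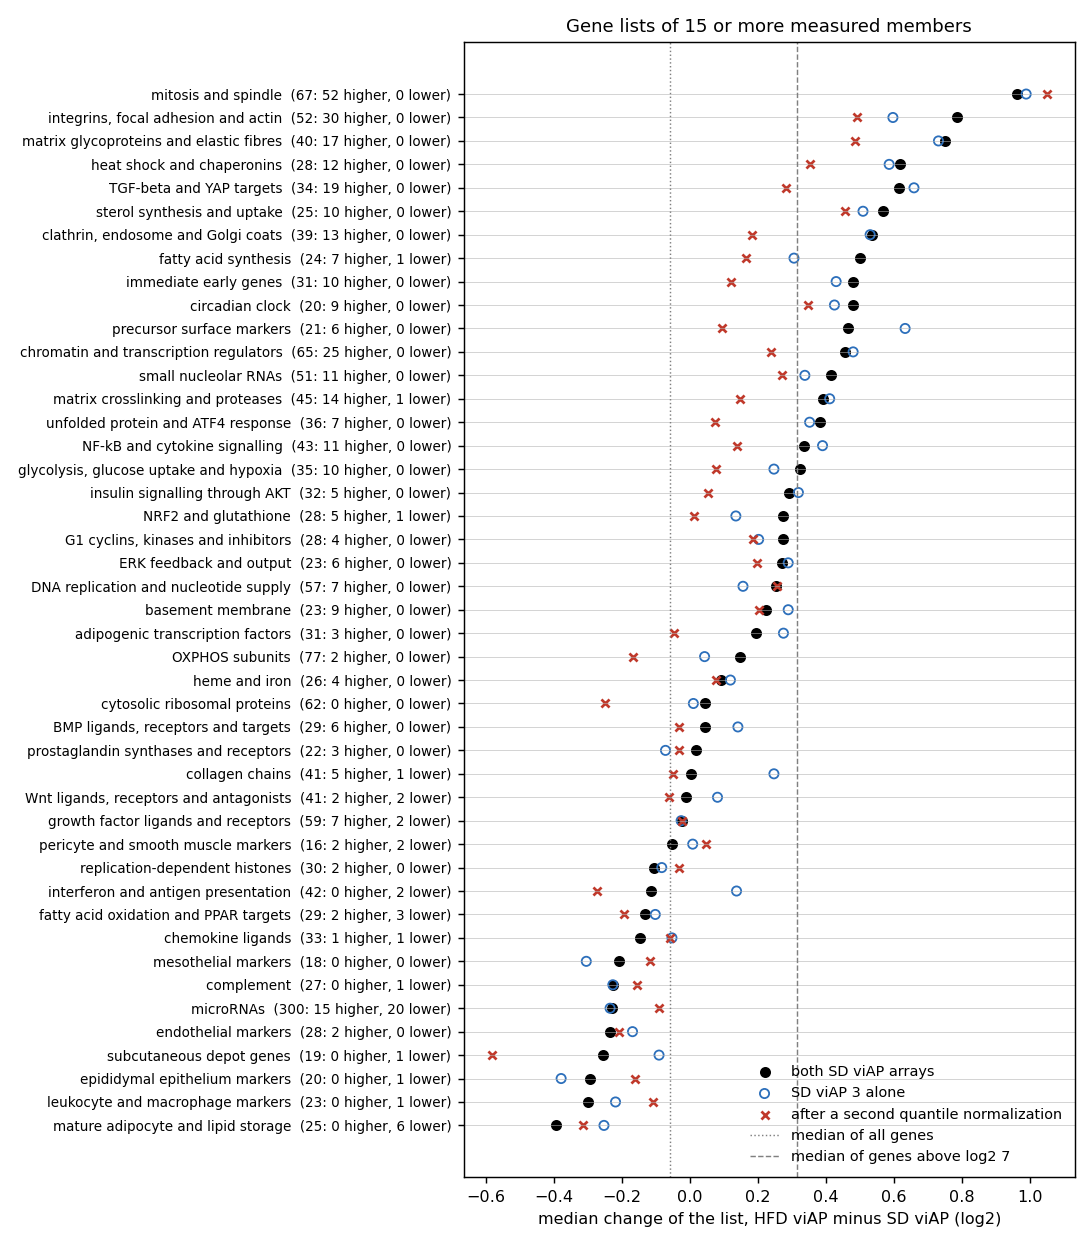
Median change (x axis, HFD viAP minus SD viAP, log2) of each gene group with at least 15 measured members (y axis), against both SD viAP arrays (filled), against SD viAP 3 alone (open) and after a second quantile normalization (crosses), with the counts called higher and lower beside each name. The mitosis group stands furthest to the right at 0.96, and the median of the 6184 genes above a log2 level of 7 is 0.32.

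Adhesion and cytoskeleton genes rose together. Of 52 integrin, focal adhesion and actin genes, 30 rose and 0 fell, with a median change of 0.79, or 0.60 against SD viAP 3 alone, where 7 were called. The share of 57.7% was above the 21.9% of bright genes, which 36 of the 52 were. After a second quantile normalization the median was 0.49. Itgb1, the integrin chain shared by most matrix receptors, measured 11.21 and 11.04 in HFD viAPs and 9.96 and 9.78 in SD viAPs (1.26, and 1.16 against SD viAP 3 alone). Fat1, a giant cadherin, rose by 1.61, Iqgap2, a scaffold of the actin cortex, by 1.46, and Vcl, the focal adhesion protein vinculin, by 1.44. Itga9 and Itga5, chains of matrix receptors, rose by 1.38 and 1.35. For Vcl, Itga9, Itga5 and Flna, SD viAP 4 was the lowest array, and their changes against SD viAP 3 alone were 1.00, 0.94, 0.86 and 0.83. The rise of Iqgap2 was also smaller against SD viAP 3 alone, because SD viAP 4 was the lower SD array.

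Of 40 matrix glycoprotein and elastic fibre genes, 17 rose and 0 fell (median 0.75, and 0.73 against SD viAP 3 alone, where 6 were called). The 42.5% that rose was above the 21.9% of bright genes, which 33 of the 40 were. After a second quantile normalization the median was 0.485. Ltbp4 and Ltbp1, which store latent TGF-beta in the matrix, rose by 1.79 and 1.24. SD viAP 4 was the lower SD array for both, above all for Ltbp4, so both rises were smaller against SD viAP 3 alone. Mfap5 and Mfap4, microfibril proteins, rose by 1.20 and 1.34. Among 23 basement membrane genes 9 rose and 0 fell (2 and 0 against SD viAP 3 alone), led by the laminin chains Lama2 (11.62 and 11.51 in HFD viAPs against 10.01 and 10.21 in SD viAPs, a change of 1.45), Lamb1 (1.31), Lama4 (1.17) and Lamc1 (1.15). Of the basement membrane genes 39.1% rose, beside 21.9% of bright genes, which 14 of the 23 were. Of 41 collagen chains 5 rose (12.2%) and 1 fell. The median change of the collagen chains was 0.00, or 0.25 against SD viAP 3 alone and -0.27 against SD viAP 4 alone. Against SD viAP 3 alone 1 was called, Col8a1, and the difference between collagens and other matrix genes was not tested. After Col8a1 these were the basement membrane chains Col4a2 (1.00) and Col4a1 (0.87), Col15a1 (0.96) and Col14a1 (0.75), and the chain that fell was Col9a1 (-0.63).

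Among 45 genes of matrix crosslinking and proteolysis 14 rose and 1 fell, and against SD viAP 3 alone 5 rose and 1 fell. The share that rose was 31.1%, beside 21.9% of bright genes, which 32 of the 45 were. The median of 0.39 became 0.15 after a second quantile normalization. The proteoglycan-cleaving proteases Adamts4, Adamts12 and Adamts5 rose by 1.63, 1.16 and 1.14. Plau, urokinase, rose by 1.32 and Tgm2, a crosslinking transglutaminase, by 1.37. For Adamts4 and Tgm2, SD viAP 4 was the lower SD array, and their rises were smaller against SD viAP 3 alone. Mmp3, stromelysin, was lower after HFD instead. It measured 5.52 and 5.52 in HFD viAPs, 7.44 on SD viAP 3 and 11.00 on SD viAP 4, beside 10.97 and 10.97 in HFD scAPs and 11.60 and 11.16 in SD scAPs. The change was -3.70 (SE 0.87, adjusted p = 0.0345) with both SD viAP arrays and -1.92 against SD viAP 3 alone (adjusted p = 0.0354). Mmp3 is one of the subcutaneous depot genes, and its change against SD viAP 4 alone was -5.48.

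TGF-beta and YAP target genes rose in 19 of 34 cases and fell in 0, with a median change of 0.62 and 0.66 against SD viAP 3 alone, where 6 were called. The share of 55.9% was above the 21.9% of bright genes, which 28 of the 34 were. After a second quantile normalization 7 were called higher and the median was 0.28. Ccn2, the matricellular protein CTGF, measured 9.81 and 9.50 in HFD viAPs and 7.92 and 7.51 in SD viAPs. Its change was 1.94 (SE 0.18, adjusted p = 0.00251 from limma) and 1.73 against SD viAP 3 alone. Lrrc32, which presents latent TGF-beta at the cell surface, rose by 1.66. Smad7 and Skil, inhibitors induced by the pathway they restrain, rose by 1.47 and 1.30, and the ligand genes Tgfb1 and Tgfb3 by 0.99 and 0.98. Of 29 BMP pathway genes 6 rose (20.7%) and 0 fell, led by the ligand genes Bmp6 (1.45) and Bmp2 (0.85), and 1 was called higher against SD viAP 3 alone. Of 41 Wnt genes 2 rose and 2 fell, and 0 were called against SD viAP 3 alone.

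Of 59 growth factors and receptors, 7 rose (11.9%) and 2 fell (1 and 0 against SD viAP 3 alone). Vegfc, the lymphatic growth factor, measured 8.77 and 8.39 in HFD viAPs and 7.48 and 6.78 in SD viAPs, a change of 1.45 (1.10 against SD viAP 3 alone). Pdgfrb, the PDGF receptor of stromal cells, rose by 0.77, while Pdgfra had a change of 0.39 that did not pass (adjusted p = 0.103). Igfbp3, which binds IGFs in the circulation and matrix, measured 6.75 and 6.98 in HFD viAPs and 7.89 and 8.55 in SD viAPs, and fell by 1.35. Its change against SD viAP 3 alone was -1.02 and did not pass over all probe sets. Feedback and output genes of ERK rose in 6 of 23 cases (26.1%, near the 21.9% of bright genes) and fell in 0, and 2 were called both against SD viAP 3 alone and after a second quantile normalization. The 6 included the kinase Mapkapk2 (1.55), the Sprouty inhibitors Spry1 (1.38) and Spry2 (1.18) and the phosphatase Dusp6 (1.16). Of 32 genes of insulin signalling through AKT, 5 rose (15.6%, below the share of bright genes) and 0 fell, and 0 were called against SD viAP 3 alone. The 5 were led by Trib1 (1.08) and Gsk3b (0.88). Akt2 was read by 2 probe sets that disagreed. The brighter measured 10.06 and 9.88 in HFD viAPs and 9.59 and 9.42 in SD viAPs (0.46, adjusted p = 0.0851), and the other 9.16 and 9.13 against 8.31 and 8.30 (0.84, adjusted p = 0.00747).

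Surface proteins of APs rose in 6 of 21 cases (28.6%, near the 21.9% of bright genes, which 19 of the 21 were) and fell in 0, and 3 were called against SD viAP 3 alone. Their median change of 0.46 became 0.09 after a second quantile normalization. The summed intensity of the list was 45432 and 43736 in HFD viAPs against 34614 and 38654 in SD viAPs. Thy1, a glycoprotein of stromal cells, measured 10.25 and 10.37 in HFD viAPs, 8.52 on SD viAP 3 and 9.45 on SD viAP 4 (1.33, and 1.79 against SD viAP 3 alone). Vcam1 and Cd44, adhesion receptors, rose by 1.32 and 1.20. Among 43 NF-kB and cytokine genes 11 rose (25.6%, near the share of bright genes) and 0 fell, including Tnfrsf11b, the decoy receptor osteoprotegerin (1.37), the cytokine gene Lif (1.05) and the receptor gene Osmr (0.94). The rise of Tnfrsf11b was smaller against SD viAP 3 alone, because SD viAP 4 was the lower SD array. After a second quantile normalization 0 of the 43 were called higher and 1 lower. Against SD viAP 3 alone 1 rose, Birc3, and 2 fell, the acute phase genes Lcn2 and Saa3, with changes of -2.36 and -1.83. Chemokine ligands moved otherwise: of 33, only Ccl2 rose (0.52) and only Cxcl13 fell, and against SD viAP 3 alone Cxcl10 rose and Cxcl13 fell. Cxcl13, the B cell attractant made by stroma and mesothelium, had the largest decrease of the called genes, with 7.38 and 7.74 in HFD viAPs against 11.08 and 12.00 in SD viAPs. It fell by 3.98 (SE 0.31, adjusted p = 0.00251), and the change was -3.52 against SD viAP 3 alone (adjusted p = 0.0354). The 18 mesothelial markers had 0 members higher and 0 lower, and summed to 2093 and 2339 in HFD viAPs against 2222 on SD viAP 3 and 1274 on SD viAP 4. On the scAP arrays they summed to between 1081 and 1270. Ccl8, a chemokine gene of subcutaneous cells, measured 5.46 and 5.17 in HFD viAPs, 4.64 on SD viAP 3 and 7.91 on SD viAP 4 and was not called. Its sign turned with the reference, and against SD viAP 3 alone it was 0.67 higher in HFD viAPs (adjusted p = 0.13).

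Of 28 antioxidant genes of the NRF2 pathway 5 rose and 1 fell. The 17.9% that rose is below the 21.9% of bright genes, which 23 of the 28 were, and 0 were called against SD viAP 3 alone. The median change of 0.28 became 0.01 after a second quantile normalization. Gclc, the catalytic subunit of the enzyme that limits glutathione synthesis, measured 8.96 and 8.82 in HFD viAPs and 7.83 and 7.51 in SD viAPs (1.22). Gclm, its regulatory subunit, measured 7.98 and 7.92 in HFD viAPs and 6.95 and 6.70 in SD viAPs (1.12). Gstm1, a glutathione transferase, rose by 0.90, the peroxiredoxin gene Prdx1 by 0.80 and the thioredoxin reductase gene Txnrd1 by 0.78, while Sod1, the cytosolic superoxide dismutase, fell by 0.92. The antioxidant response element, searched as TGACNNNGC on either strand, stood in 9 of the 23 windows of these genes (39.1%), against 14.0% of all genes, and in 3 of the 4 windows of genes that rose. The sterol regulatory element, searched as TCACNCCAC, stood in 1 of 20 windows of the sterol genes (5.0%), against 1.4% of all genes. The windows of Gclm (chr3:122245307-122245606, plus strand) and of Hmgcs1 (chr13:119690101-119690400, plus strand) are printed because each holds its element, in capitals, at 134 and at 137 bases before the start (RefSeq, GRCm38.p6).
Gclm: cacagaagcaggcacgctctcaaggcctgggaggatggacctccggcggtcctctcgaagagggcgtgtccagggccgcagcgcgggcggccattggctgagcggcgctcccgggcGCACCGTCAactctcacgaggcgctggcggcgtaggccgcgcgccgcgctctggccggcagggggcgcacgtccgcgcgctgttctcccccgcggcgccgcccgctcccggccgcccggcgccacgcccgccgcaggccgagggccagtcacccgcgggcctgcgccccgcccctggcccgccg
Hmgcs1: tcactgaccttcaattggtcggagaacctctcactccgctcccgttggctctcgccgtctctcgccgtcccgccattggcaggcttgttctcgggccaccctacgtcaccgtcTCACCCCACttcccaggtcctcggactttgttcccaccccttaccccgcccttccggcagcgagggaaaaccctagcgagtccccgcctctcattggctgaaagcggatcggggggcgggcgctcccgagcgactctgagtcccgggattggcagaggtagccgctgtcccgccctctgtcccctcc

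Genes of protein folding, transport and transcription rose in part. Of 28 heat shock and chaperonin genes 12 rose (42.9%, beside 21.9% of bright genes) and 0 fell. Their median was 0.62, and 0.59 against SD viAP 3 alone, where 0 were called. After a second quantile normalization the median was 0.35. The 12 included Hspa4 (1.14), the chaperonin subunit Cct8 (1.08) and the small heat shock protein Cryab (1.05). Each of these rises was smaller against SD viAP 3 alone. Of 39 genes of clathrin, endosomes and Golgi coats 13 rose (33.3%) and 0 fell, and 1 was called against SD viAP 3 alone. They were led by Cltc, the clathrin heavy chain, with 10.76 and 10.71 in HFD viAPs against 9.33 and 9.17 in SD viAPs (1.48). After a second quantile normalization 2 of the 39 were called higher, and the median of 0.54 became 0.18. Among 65 chromatin and transcription regulators 25 rose (38.5%) and 0 fell, with a median of 0.46 and 0.48 against SD viAP 3 alone, where 8 were called. After a second quantile normalization 11 of the 65 were called higher, with a median of 0.24. Taf4b, a subunit of TFIID, rose by 1.76 and the remodeller gene Chd1 by 1.55. The elongation factor gene Aff1 rose by 1.46 and Dot1l, which methylates histone H3, by 1.42. Jmjd1c changed by 1.63 on 1 of its probe sets and by -0.04 on the other. The 62 cytosolic ribosomal protein genes had 0 members called in either direction and a median of 0.05, which turned to -0.25 after a second quantile normalization. Of 77 oxidative phosphorylation subunits 2 rose (Ndufs5 and Ndufc2) and 0 fell, and 0 were called against SD viAP 3 alone.

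The remaining large decreases were scattered over functions. Abcc9 and Kcnj8, the subunits of a vascular potassium channel, had changes of -2.09 and -1.06, but of -1.19 and -0.64 against SD viAP 3 alone. Prg4, the lubricating proteoglycan, measured 7.09 and 6.73 in HFD viAPs and 8.01 and 9.38 in SD viAPs. It fell by 1.79, and against SD viAP 3 alone the change was -1.10, which did not pass over all probe sets. Reep6, a membrane-shaping protein of the endoplasmic reticulum, changed by -1.60, Clu, the extracellular chaperone clusterin, by -1.53 and Tmem176a by -1.33. Their changes against SD viAP 3 alone were -1.61, -1.27 and -1.36. Zim1 and Peg3, imprinted zinc finger genes that neighbour each other, had changes of -1.36 and -1.26, but of -0.84 and -0.72 against SD viAP 3 alone. Hhip, which soaks up hedgehog ligands, measured 5.49 and 5.62 in HFD viAPs and 7.04 and 6.39 in SD viAPs (-1.17, and -1.49 against SD viAP 3 alone), and Cdon, a hedgehog coreceptor, measured 4.75 and 4.58 against 5.73 and 5.91 (-1.15). Peg3, Hhip and Cdon were named after their values were seen.

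Of 300 microRNA genes measured, 15 were called higher and 20 lower, and all 15 that rose lie in 1 run of genes on chromosome 12, from Mir379 to Mir369, inside the imprinted interval between Dlk1 and Dio3. This region was singled out after its values were seen. It is expressed from the maternal chromosome as long non-coding RNAs (Meg3 and Rian among them) that carry clusters of snoRNAs and microRNAs, while the protein-coding genes Dlk1, Rtl1 and Dio3 are expressed from the paternal chromosome. Of the 30 microRNA genes measured from Mir379 to Mir369, 15 rose and 0 fell, and 24 had both HFD viAP arrays above both SD viAP arrays. That pattern was seen in 28.9% of all probe sets and in 34 of the 300 microRNA genes. The next values are those of the 30 genes. Their median change was 0.86, the same against SD viAP 3 alone, 0.95 after a second quantile normalization and -0.01 in scAPs. The 10 microRNA genes of the interval that precede Mir379 had 0 members called and a median of -0.30. The 260 microRNA genes elsewhere had 0 higher and 20 lower and a median of -0.27, or -0.14 after a second quantile normalization. They were dim, and the median change of all 9913 genes with a mean log2 level up to 6 was -0.17. Of the 300, 0 were called higher and 1 lower against SD viAP 3 alone.

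The 6 genes with the largest increases are shown by their mature sequences, because the array reads these genes through short RNAs or their precursors and the seed says which targets such an RNA could pair with. Capitals mark the seed, bases 2 to 8 (RefSeq, GRCm38.p6). The arms held in the table are given, and miR-376c-5p is added because its seed is the same as that of miR-376b-5p. Among the arms held for the 15 genes no other pair shared a seed, and some arms of these genes were not held.
mmu-miR-380-5p: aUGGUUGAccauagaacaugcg
mmu-miR-380-3p: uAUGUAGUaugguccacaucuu
mmu-miR-154-5p: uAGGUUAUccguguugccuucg
mmu-miR-154-3p: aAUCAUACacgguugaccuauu
mmu-miR-329-5p: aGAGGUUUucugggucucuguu
mmu-miR-329-3p: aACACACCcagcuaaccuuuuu
mmu-miR-382-5p: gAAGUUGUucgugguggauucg
mmu-miR-382-3p: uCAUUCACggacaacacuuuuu
mmu-miR-376b-5p: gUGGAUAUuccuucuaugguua
mmu-miR-376b-3p: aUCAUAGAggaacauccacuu
mmu-miR-376c-5p: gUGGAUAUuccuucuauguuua
mmu-miR-485-3p: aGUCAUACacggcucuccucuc

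Mir380 measured 6.43 and 5.73 in HFD viAPs and 3.91 and 4.09 in SD viAPs, a change of 2.08 (SE 0.42, adjusted p = 0.0212; 2.17 against SD viAP 3 alone). Mir154 measured 6.15 and 5.98 against 4.00 and 4.32 (1.90), and Mir329 measured 8.81 and 8.37 against 6.48 and 7.00 (1.85). Mir329 was the brightest of the 6, and the other 5 had SD viAP levels between 3.70 and 6.02, where intensities deposited as whole numbers are coarse. Mir382, Mir376b and Mir485 changed by 1.83, 1.82 and 1.61. Mir376c, which shares the seed, changed by 0.49 from levels of 2.81 and 2.81 in HFD viAPs against 2.32 and 2.32 in SD viAPs. The changes of all 15 lay between 0.49 and 2.08, and between 0.49 and 2.17 against SD viAP 3 alone. Over all probe sets 0 of the 15 passed against SD viAP 3 alone, with a smallest adjusted p of 0.0508. Their changes in scAPs ran from -0.24 to 0.58. The scAP arrays could differ within a diet, as for Mir329 with 8.25 and 6.94 after HFD, beside 7.52 and 7.29 on SD. The difference between depots had an unadjusted p under 0.05 for 15 of 15 but a smallest adjusted p of 0.187, so that no difference from scAPs passed the test.

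The long non-coding RNAs Meg3 and Rian of the interval also rose against both SD viAP arrays. Meg3 measured 10.53 and 10.31 in HFD viAPs and 9.34 and 9.62 in SD viAPs (0.94, adjusted p = 0.0456; 1.08 against SD viAP 3 alone). Rian measured 7.98 and 7.42 against 6.41 and 6.30 (1.34, adjusted p = 0.0439; 1.29 against SD viAP 3 alone). Neither passed against SD viAP 3 alone (adjusted p = 0.129 for Meg3 and 0.194 for Rian). In scAPs Rian measured 8.01 and 7.13 after HFD and 8.08 and 7.24 on SD, near its level in HFD viAPs. The measured snoRNAs of the interval, DQ267101, DQ267102 and AF357341, had changes of 0.25, -0.38 and 0.05 and none passed. The protein-coding neighbours Dlk1, an inhibitor of adipogenesis, Rtl1 and Dio3 had changes of -0.42, 0.14 and 0.41 and none passed. Probes on this array do not tell a mature microRNA from its hairpin or from the transcript that carries it.

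**Figure D5:**
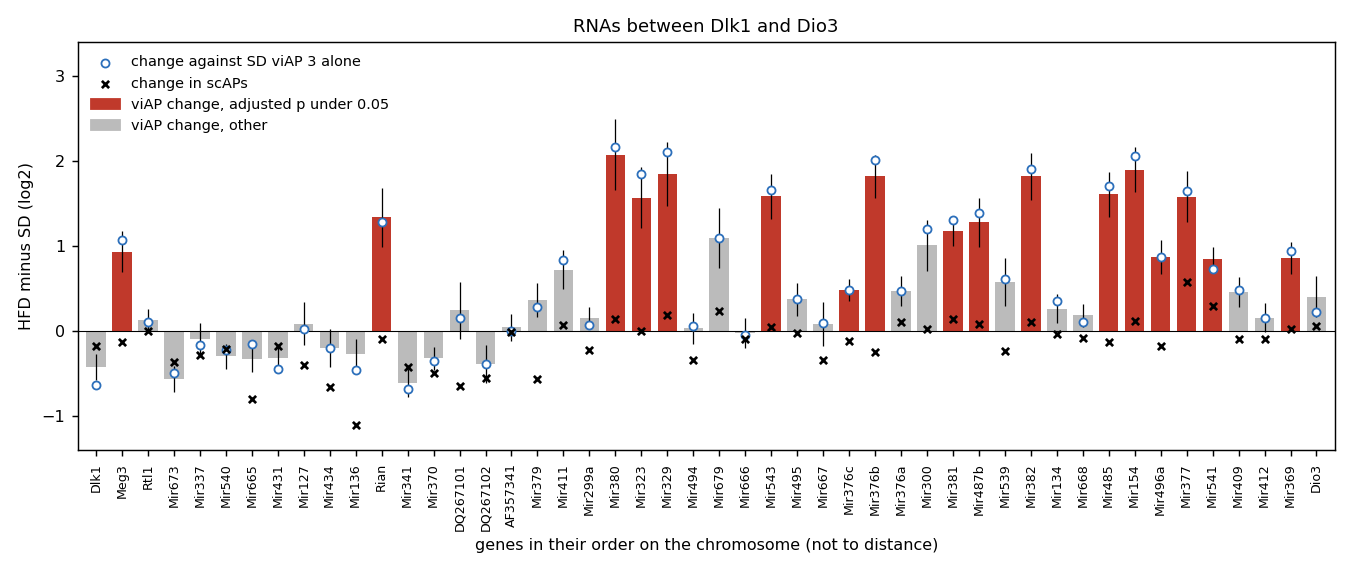
Change (y axis, HFD minus SD, log2) of each measured gene between Dlk1 and Dio3 in their order on chromosome 12 (x axis, not to distance). Bars give the viAP change with its standard error, red where the adjusted p was under 0.05, circles the change against SD viAP 3 alone and crosses the change in scAPs; the red microRNA bars all stand right of Mir379, and Mir380 is the tallest at 2.08.

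Small nucleolar RNAs, which guide modification of ribosomal RNA and mostly sit in introns of host genes, rose in 11 of 51 cases and fell in 0, and 2 were called against SD viAP 3 alone. Snord16a measured 9.63 and 9.62 in HFD viAPs and 7.63 and 6.89 in SD viAPs (2.36, SE 0.24, adjusted p = 0.00356; 1.99 against SD viAP 3 alone). Snord61 measured 8.94 and 8.66 against 7.01 and 5.95 (2.32, and 1.79 against SD viAP 3 alone). Snord33, Snord42a and Snord49b rose by 1.52, 1.46 and 1.25. The share that rose was 21.6%, beside 8.38% of all genes and 21.9% of bright genes, which 24 of the 51 were. The median change of the list was 0.41, and 0.41 in scAPs, and became 0.27 after a second quantile normalization.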

How the data were processed

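RNA of bead-purified APs was hybridized to 8 arrays in 4 groups of 2. The authors used RMA, which corrects the background, equalizes the arrays and summarizes probes (Affymetrix Expression Console 1.1 per the submitters' processing notes), and deposited 1 intensity per probe set and array as a whole number on a linear scale. The log2 of each deposited intensity was taken here. No scan date was at hand to test as a batch, and the number of arrays limits the precision.

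Gene symbols came from the platform annotation: 21789 probe sets carried 1 symbol, 1621 several and 12146 none, and only the first were used. The moderated linear model of limma 3.58.1 (R 4.3.3), with a mean for each of the 4 groups, used all 8 arrays, and Benjamini-Hochberg adjustment ran over the 21789 probe sets. The study's filter (log2 above 7 on at least 3 arrays and a variability filter) was an alternative, since it cannot keep a gene that exceeds 7 on 2 HFD viAP arrays only. The other alternatives were 1 array left out, SD viAP 4 left out, the 4 viAP arrays only, a level filter of log2 above 7 on 2 arrays, log2 of the value plus 16, centring on the median, a second quantile normalization, an intensity trend and no moderation.

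The comparison, gene lists and genes followed were chosen with earlier results of these data known. Gene lists were counted, not tested, with the brightest probe set of each gene. The genes named were the 15 that rose most and the 15 that fell most among 2-fold calls without overlap (leaving out Gm, Rik and LOC names and small RNAs), of each list at most the 6 called members with the largest change and any member as a plain value, 19 genes fixed by name, and the 10 calls that shifted most without SD viAP 4. A few further genes, the Dlk1 to Dio3 interval among them, were named after their values were seen. Promoter windows and mature microRNAs were those of RefSeq (GRCm38.p6), matched by symbol, and motifs were searched on both strands. The fit was tested on simulated data of the same design.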

Additional observations from a re-analysis of the deposited data

Results flagged for a closer look

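Col8a1 was singled out because its change differed between the depots by the test of the difference itself. Its change was 2.55 in viAPs and -0.38 in scAPs, a difference of 2.93 (adjusted p = 0.00242 from limma), and it was the only one of 21789 probe sets with an adjusted p under 0.05 for that difference. Without SD viAP 4 no difference passed, with a smallest adjusted p of 0.0561 over all probe sets, while the changes of Col8a1 against SD viAP 3 alone and against SD viAP 4 alone were 2.61 and 2.48.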

How the results depend on the processing

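Signals near background, deposited as whole numbers, limit what can be told at low levels. The 1841 higher and 424 lower calls became 0 and 0 with only the 4 viAP arrays (3844 and 2854 at an unadjusted p under 0.05), 644 higher after a second quantile normalization, 76 and 31 without moderation, and 361 and 154 with the quantile normalization and SD viAP 4 left out together, a setting chosen after seeing the data. Lower calls were 159 with the study's filter, 176 with the level filter, 89 and 91 with each of them and SD viAP 4 left out, and 275 with centring. The 479 and 35 calls at 2-fold became 0 and 0 with only the 4 arrays, 212 and 67 after the quantile normalization, 35 and 2 without moderation, 180 and 68 with the quantile normalization and SD viAP 4 left out, and 15 were lower at 2-fold with 16 added. The 1 difference between depots became 0 with the study's filter, which left out Col8a1 before the test, and 20 without moderation. With the level filter, which kept Col8a1, it stayed at 1. Against SD viAP 3 alone, the 198 higher and 21 lower calls became 1437 and 89 with the study's filter, 1397 and 91 with the level filter, and 361 and 154 with the added setting. The cause of these shifts was not tested, beyond the fewer genes that a filter leaves to adjust over and the fewer arrays of the 4-array fit. Leaving out 1 array gave 0 to 2027 higher, 0 to 551 lower, 0 to 750 and 0 to 178 at 2-fold, and 0 to 106 differences. The lowest values came without HFD viAP 5, and without SD viAP 3 the counts were 1441 higher and 446 lower. Of 224 named genes that were called, 0 changed sign under any of these settings, and 51 were still called without SD viAP 4. All settings reused these arrays, so the unchanged sign of a called gene adds no independent support. Of genes not called by the main comparison or read by several probe sets, some changed sign. With the added setting these were Cdk4 (-0.03), 1 Akt2 probe set (-0.032), Adipoq (0.14) and Wt1 (-0.10). Ccl8 did so without SD viAP 4 (0.67) and with the added setting (0.82), beside -2.59 without SD viAP 3. No paired analysis was possible because each array has a number of its own in the labels, and HFD and SD arrays share none.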
